A study of Homo sapiens with 16 samples.

Results

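The cytoplasmic ribosomal protein genes were examined as a housekeeping set in CUT&RUN peak lists from MCF-10A, a nontransformed human breast epithelial cell line. Members were the GENCODE 44 protein-coding genes whose symbol begins with RPL or RPS followed by a digit or an A, with the RPS6K kinases left out, which gave 89 of 20033 protein-coding genes. They comprised 43 large subunit genes, 31 small subunit genes, 11 paralogues, 3 readthrough genes and RPS19BP1, which encodes a protein that binds RPS19 and is not itself a ribosomal protein. Libraries for H3K4me3, a histone mark found at active promoters, were made from cells given PBS (Vehicle, n = 3), cells given 5 mM octanoic acid (OA, a medium-chain fatty acid, n = 3), both for 24 h, and untreated cells (n = 2). Untreated IgG (n = 2) and H3K27me3, a mark of repressed chromatin, in Vehicle and OA (n = 3 each) served as other readouts. All groups come from a single line, so the spread between replicates does not include that between donors. In Vehicle and OA it is that between cultures, per the study's methods. For the untreated libraries this is not stated. A peak list does not tell whether more cells carry the mark or each cell carries more of it.

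Ribosomal protein genes encode the proteins that, with ribosomal RNA, build the large and the small ribosomal subunit. They are transcribed at high levels in nearly every cell type, most from short GC-rich promoters. Many of their mRNAs begin with a C followed by a run of pyrimidines, the TOP sequence through which mTOR signalling controls their translation. Several host small nucleolar RNAs (snoRNAs) in their introns, and 28 of the 89 members contained at least 1 annotated snoRNA.

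RefSeq promoter windows (GRCh38.p14, 250 bases before and 50 bases after the start) were found for 70 of the 89 members, and in 60 of these the RefSeq and GENCODE start bases were identical. Stretches of 6 members are shown because they set standard genes beside paralogues. They include RPS14, the member of highest rank, and genes with the largest differences in length (RPL36A, RPL36AL) or enrichment (RPSA, RPS27, RPS27L). Each stretch runs 5′ to 3′ from 40 bases before the start, and the capitals mark the unbroken pyrimidine run that begins at the start base. RPS14 lies at chr5:150449720-150449779 on the minus strand, RPSA at chr3:39406680-39406739 on the plus strand, RPL36A at chrX:101390971-101391030 on the plus strand, RPL36AL at chr14:49620607-49620666 on the minus strand, RPS27 at chr1:153990722-153990781 on the plus strand and RPS27L at chr15:63157458-63157517 on the minus strand.
RPS14: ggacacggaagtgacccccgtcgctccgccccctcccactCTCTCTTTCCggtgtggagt
RPSA: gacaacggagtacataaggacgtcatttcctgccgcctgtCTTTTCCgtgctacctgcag
RPL36A: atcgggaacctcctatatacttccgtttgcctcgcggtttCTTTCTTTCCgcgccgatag
RPL36AL: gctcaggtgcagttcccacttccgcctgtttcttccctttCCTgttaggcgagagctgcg
RPS27: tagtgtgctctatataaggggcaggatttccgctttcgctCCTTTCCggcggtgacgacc
RPS27L: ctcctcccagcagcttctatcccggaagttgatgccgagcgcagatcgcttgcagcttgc

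RPS14, RPSA, RPL36A and RPS27 began with a C and pyrimidine runs of 10, 7, 10 and 7 bases. Their start is the TOP form, taken here as a C at the start followed by at least 4 pyrimidines. The paralogue RPL36AL had a run of 3 bases at the start, with a TOP form beginning within 5 bases of it, and RPS27L had neither. Of the 59 standard subunit genes with a window, 39 (66.1%) had a TOP start, against 2 of 9 paralogues, 5 of 69 mitochondrial ribosomal protein genes (7.25%) and 672 of 15275 protein-coding genes that are not members, the mitochondrial genes included (4.40%). The motif CCGGAAG, read by ETS factors such as GABPA, occurred on either strand in 31.4% of the member windows. It occurred in 42.0% of the mitochondrial ribosomal protein windows and 14.3% of these 15275. In the same order, the YY1 motif AAGATGG occurred in 12.9%, 33.3% and 6.40%, and TATAAA in 8.57%, 2.90% and 9.63%. The SP1 motif GGGCGG occurred in 54.3%, 60.9% and 59.3%, and the CRE TGACGTCA in 2.86%, 0% and 2.64%. The ETS and YY1 motifs were thus more frequent in the mitochondrial windows than in those of the members. The ETS motif ends in the letters with which the YY1 motif begins, so a single stretch can count for both, and these matches are a description of the windows only.

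A member was assigned the merged H3K4me3 region that covered the start base of its canonical transcript. Regions were built from the Vehicle and OA peaks, joined at 1 bp of overlap, and needed a peak in 2 or more of those 6 libraries. Of the 89 members, 85 had such a region, in 82 distinct regions, against 11738 of 19944 other protein-coding genes. The genes without a region were RPL10L and RPL3L, paralogues known for expression in testis and in muscle, and RPS4Y1 and RPS4Y2 on the Y chromosome. In all 6 libraries 81 genes in 78 regions were called, and in all 8 H3K4me3 libraries 72 genes in 70 regions. The 78 mitochondrial ribosomal protein genes, which build the ribosome of the mitochondrion, gave 76 genes with a region, 73 called in all 6 and 61 in all 8. RPLP0, RPLP1, RPLP2 and FAU, ribosomal protein genes whose symbols the naming rule does not take, were called in all 8.

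Per library, 81, 80 and 79 of the 82 member regions were called in Vehicle 1, 2 and 3 and 81, 81 and 82 in OA 1, 2 and 3. In Untreated 1 and 2 the counts were 75 and 72. The other protein-coding start-site regions followed the same order, from 99.8% called in OA 3 to 73.2% in Untreated 2. Called in all 3 OA and no Vehicle libraries were 0 of the 82 member regions and 345 of all 18734 merged regions. The reverse held for 0 member regions and 15 of all merged regions. At such low shares in the genome, little is to be read from 0 among 82. The untreated libraries were the smallest lists, with 12924 and 11242 peaks against 16086 to 21033 in the others.

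The missing calls fell on a few genes. RPL39L, a paralogue of RPL39, was called over 187 bp in Vehicle 1 and over 198, 233 and 612 bp in OA 1 to 3, and in no other library. RPSA2 was called over 260 bp in OA 1 and 837 bp in OA 3 only. These 2 were the shortest member regions, and the difference in their calls between OA and Vehicle was not tested. RPL23A, a large subunit gene, was called over 1018, 1411 and 191 bp in Vehicle and 510 and 1194 bp in OA 2 and OA 3, and was missed in OA 1 and in both untreated libraries. RPL10, an X-linked large subunit gene, was missed in Vehicle 3 and in both untreated libraries. RPSA and RPS4X were missed in Untreated 1 only, RPS12, RPS24, RPL19, RPS9 and RPL39 in Untreated 2 only, and RPL36A, with the readthrough gene that starts in its region, in both. Each of the 4 X-linked member regions thus lacked at least 1 untreated call. The other X-linked protein-coding regions that were called in all 6 Vehicle and OA libraries were called in Untreated 1 and 2 in 162 and 111 of 261.

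The set was checked against both other antibodies. No member region overlapped a H3K27me3 region in any of the 6 libraries, where 0.162% to 2.40% of the other protein-coding start-site regions did. Of the IgG libraries, 1 had a peak in a member region, a 270 bp peak upstream of RPL23 with a column 7 value of 4.49 at percentile 5.20 of that library. Breast basal epithelial markers KRT5, KRT17, EGFR and ITGB4 were called at the canonical start in all 8 H3K4me3 libraries, KRT14 and TP63 in none, and 0 of 8 markers of blood, endothelial, liver, neural and muscle cells in any.

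Called length was compared between the ribosomal protein regions and the other start sites of each library. The median called length (summed peak lengths in a region) over the 78 member regions called in all 6 was 1884, 1894 and 1074 bp in Vehicle 1 to 3, 1196, 1437 and 1534 bp in OA 1 to 3, and 912 and 722 bp in the untreated libraries. Vehicle 3 was the shortest of the treated libraries and Vehicle 1 and 2 the longest, so the Vehicle and OA medians overlapped. The group means were 1617 ± 471 bp in Vehicle and 1389 ± 174 bp in OA (SD, n = 3 each), a difference of less than 1 SD of Vehicle. Other protein-coding start-site regions (8939) had medians of 1348, 1358 and 884 bp in Vehicle and 1131, 1364 and 1434 bp in OA.

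**Figure D1:**
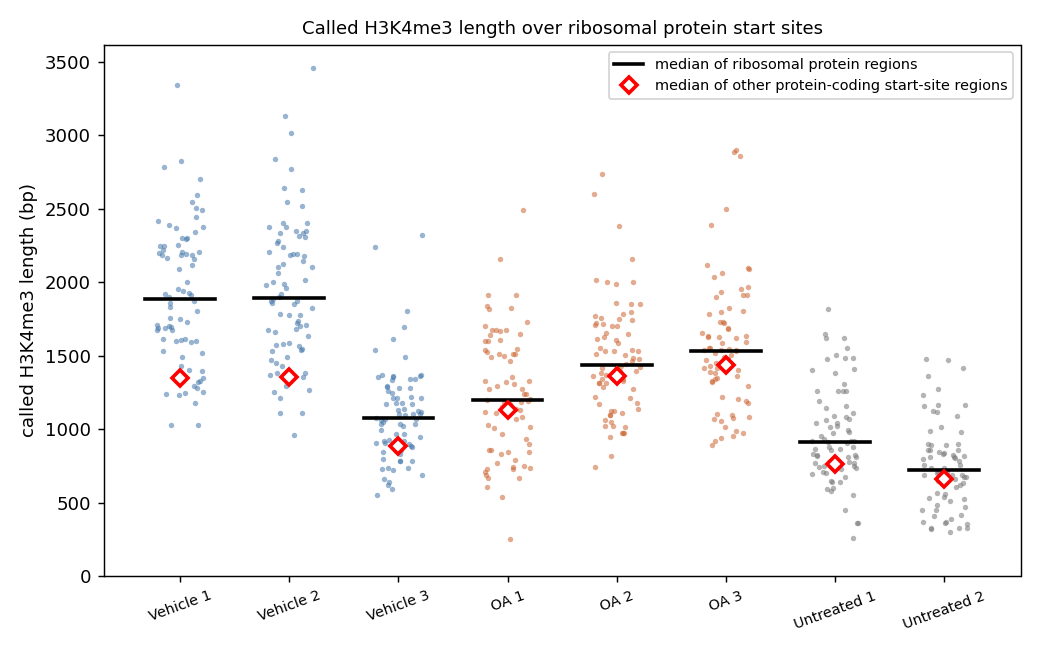
Called H3K4me3 length in bp of each ribosomal protein region (points) in the 8 libraries, with the median of those regions (black bar) and the median of the other protein-coding start-site regions (red diamond). The black bar lies well above the diamond in Vehicle 1 and 2 (1884 against 1348 bp and 1894 against 1358 bp) and close to it in OA 2 and 3 (1437 against 1364 bp and 1534 against 1434 bp).

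Set against the other start sites of the same library, the ribosomal protein regions were 1.40, 1.39 and 1.21 times as long in Vehicle 1 to 3 and 1.06, 1.05 and 1.07 times as long in OA 1 to 3. These ratios did not overlap between Vehicle and OA. Untreated 1 and 2 lay between, at 1.19 and 1.09. In Vehicle, 65, 70 and 58 of the 78 regions were longer than the median of the other start sites, and in each OA library 48 were. The lack of overlap was not particular to these genes. The 72 mitochondrial ribosomal protein regions had medians of 1287, 1297.5 and 832.5 bp in Vehicle and 1040.5, 1238 and 1316.5 bp in OA. Their ratios to the other start sites were below 1 in these libraries and did not overlap either, with a smaller gap. The lists held 19953, 16381 and 16086 peaks in Vehicle 1 to 3 and 17988, 17975 and 21033 in OA 1 to 3, and the part of list size in the ratios was not tested.

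Region by region, the log2 called length, centred on the median of each library, was lower in OA for 74 of the 78 member regions (94.9%), against 54.3% of all 11071 regions. The median OA minus Vehicle difference was -0.34 log2 for the members and -0.03 for all regions. For 37 of the 78 regions each OA library was below each Vehicle library, where the background was 8.8% of all regions. On lengths as deposited, without centring, the median of all regions was 0.13 log2 higher in OA, and 64 of 78 members were still lower in OA against 25.7% of all regions, but only 2 of 78 members had groups that did not overlap, against 0.533% of all regions. Leaving out each library in turn kept between 70 and 74 members lower. No member passed limma at an adjusted p under 0.05, where 0% of all regions did, and 32 of 78 members and 900 of 11071 regions had an unadjusted p under 0.05. The lowest limma adjusted p among members was 0.38.

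**Figure D2:**
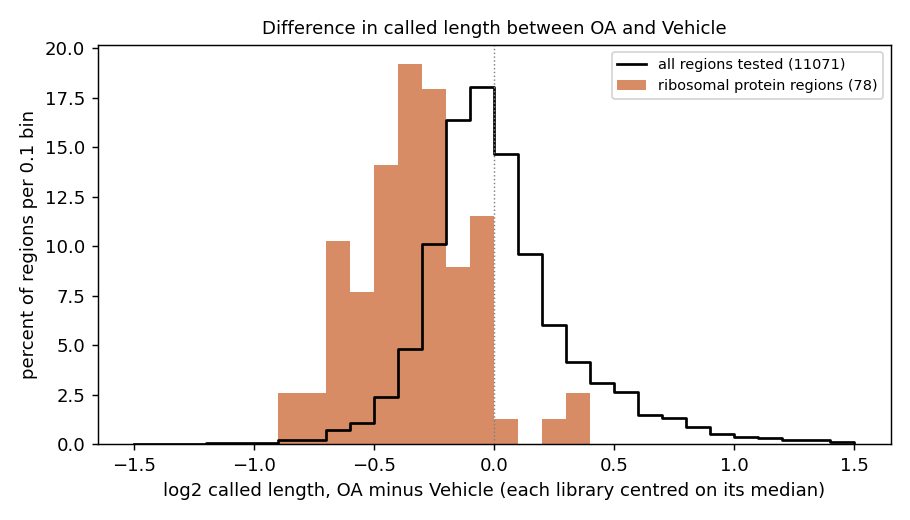
Percent of regions in each 0.1 bin of the log2 called length difference, OA minus Vehicle, for the 78 ribosomal protein regions (bars) and all 11071 regions tested (line), within 1.5 log2 on either side. The bars sit left of the line, with a median of -0.34 against -0.03, and 4 members lie above 0.

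The direction was shared by both subunits. It was lower in OA for 40 of 41 large subunit and 31 of 31 small subunit regions, with medians of -0.38 and -0.30 log2. Among the 5 paralogues called in all 6 libraries, 2 were lower, RPL22L1 (-0.28) and RPL7L1 (-0.29). The other 3 paralogues and RPL28 made up the 4 regions above 0. The 25 regions with a snoRNA host gene were all lower (median -0.38), as were 49 of the 53 without one (median -0.29). Of regions with and without a TOP start, 39 of 40 and 20 of 23 were lower, with medians of -0.39 and -0.29 log2. The regions without a TOP start that were not lower were those of the paralogues RPL26L1, RPL36AL and RPS27L. Among those without it, RPL11, RPS7, RPL32, RPL10A, RPL36AL, RPL4, RPL19, RPS28 and RPL3 had one within 5 bases of the RefSeq start. The RefSeq start used for the score was offset from the GENCODE start by -587 to -12330 bp for RPL15, RPL26L1, RPS27A, RPL6 and RPS29. The split by TOP start therefore depends on the annotated start base.

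The comparison lists moved less. Of 14 regions of other TOP mRNA genes, mostly translation factors such as EEF1A1, EEF2 and TPT1, 13 were lower in OA, with a median of -0.15 log2. Of 72 mitochondrial ribosomal protein regions 50 were lower, median -0.10. Of 5 regions of ribosomal protein genes outside the naming rule, RPLP0, RPLP1, RPLP2 and FAU among them, 3 were lower, median -0.12. For these 5 and for the 14, the ratios of median length to the other start sites overlapped between Vehicle and OA. Long regions were also more often lower in the rest of the genome. Over the other start sites, the share lower in OA was 45.4% in the shortest of 4 equal classes by mean length over the 6 libraries and 65.7% in the longest. Of the members, 34 were in that longest class, 31 of them lower with a median of -0.34, against -0.07 for the other regions of the class. Of the 17 members in the next-to-shortest class 16 were lower, median -0.37, against -0.01.

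Part of the extra length of Vehicle 1 and 2 lay inside the genes, while Vehicle 3 had the shortest downstream extent of the treated libraries. The member regions reached a median of 1430, 1459 and 746 bp downstream of the start in Vehicle and 904, 899 and 903 bp in OA. Relative to the other start sites these extents were 1.50, 1.54 and 1.19 times as long in Vehicle and 1.09, 0.959 and 0.963 times as long in OA, without overlap. The untreated values, 1.41 and 1.15, were in the Vehicle range or close below it. Upstream, the ratios were 1.14, 1.17 and 1.42 in Vehicle and 0.981, 1.33 and 1.21 in OA, and these did overlap.

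**Figure D3:**
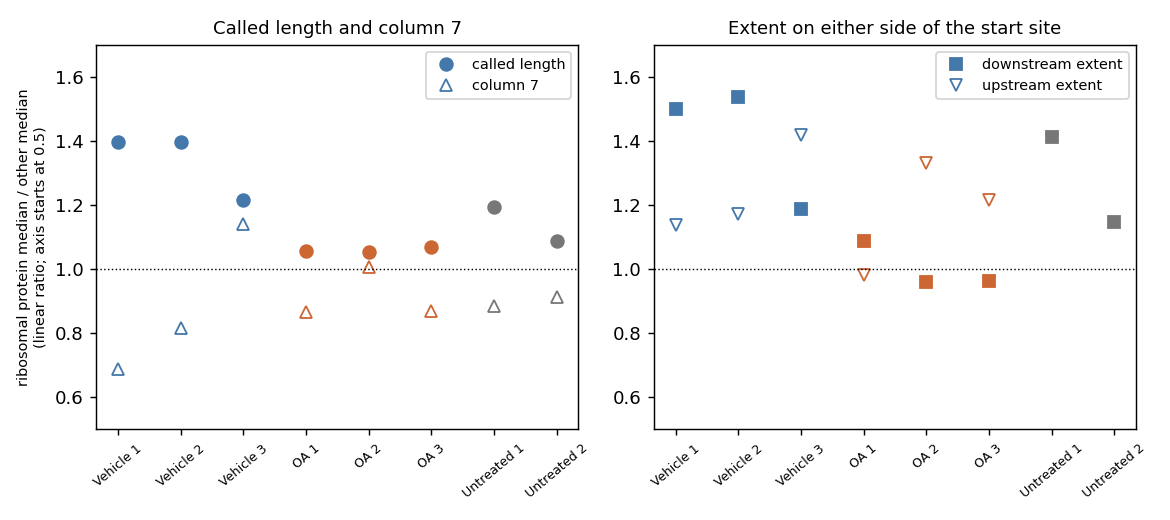
Ratio of the ribosomal protein median to the median of the other protein-coding start-site regions in each library, for called length and column 7 (left) and for the extent downstream and upstream of the start (right). No upstream ratio is drawn for the untreated libraries, whose median upstream extents are near or below 0. The 3 OA libraries sit at 1.05 to 1.07 for called length, below the 3 Vehicle libraries at 1.21 to 1.40.

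Among single genes, the named falls and rises in length did not pass the test. RPL36A, a large subunit gene, was called over 1406, 1870 and 968 bp in Vehicle and 540, 1023 and 1179 bp in OA (centred difference -0.81 ± 0.23 log2, SE, adjusted p = 0.44 by limma). RPL39, also X-linked, had 1328, 1537 and 1104 bp in Vehicle and 254, 1613 and 1401 bp in OA. OA 1 alone was low for RPL39, and its difference of -0.82 had an SE of 0.58. The X-linked small subunit gene RPS4X had 1712, 1711 and 784 bp in Vehicle and 688, 975 and 986 bp in OA (-0.76 ± 0.17, SE, adjusted p = 0.41 by limma). Each of these X-linked genes was shortest in OA 1. The 261 other X-linked start-site regions were also short there, with medians of 789, 1261 and 1266 bp in OA 1 to 3. In Vehicle 1 to 3 their medians were 1175, 1269 and 719 bp. The part of OA 1 in the named falls was not tested.

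In the other direction, RPL36AL was called over 2115, 1579 and 1138 bp in Vehicle and 1916, 2600 and 2390 bp in OA, a centred difference of 0.39 ± 0.15 log2 (SE, adjusted p = 0.59 by limma). Its region also holds the start of MGAT2, an enzyme of N-glycan processing, so the length belongs to both genes. RPL26L1 had 1251, 1295 and 622 bp in Vehicle and 1198, 1461 and 1541 bp in OA (0.31 ± 0.15, SE, adjusted p = 0.66 by limma). RPS27L, a p53 target, had 1532, 1473 and 1070 bp in Vehicle and 1310, 1999 and 2117 bp in OA (0.24 ± 0.15, SE, adjusted p = 0.71 by limma). On the deposited lengths the groups of these 3 paralogues overlapped, RPL36AL, RPL26L1 and RPS27L each having OA 1 within the Vehicle range.

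Genes with known roles outside the ribosome or in disease showed the same range of values. RPL5 and RPL11, which bind MDM2 when ribosome assembly fails, had 1394, 1381 and 1034 bp against 1239, 1136 and 1086 bp, and 1520, 1637 and 903 bp against 1085, 1061 and 1094 bp, in Vehicle against OA. RPS19, the gene most often mutated in Diamond-Blackfan anaemia, had 1859, 1861 and 1362 bp against 1672, 1479 and 1630 bp. RPS14, whose loss underlies the anaemia of the 5q deletion, had 1750, 1722 and 1369 bp against 1598, 1312 and 1507 bp. In each of these 4 genes Vehicle 3 fell below or within the OA range while Vehicle 1 and 2 lay above it. RPS6, the S6 kinase substrate, had 2161, 2377 and 969 bp against 739, 1589 and 1620 bp, and RPL3, which lies near the peptidyl transferase centre, 3345, 3131 and 847 bp against 1165, 1858 and 2096 bp. The centred differences of these 6 genes ran from -0.23 (RPS19) to -0.62 (RPS6) with limma adjusted p from 0.51 to 0.74.

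Further examples were RPL4, with 2443, 2838 and 1280 bp in Vehicle and 1514, 1769 and 1935 bp in OA, and RPL13A, a host of snoRNAs, with 2304, 2336 and 1102 bp against 1466, 1481 and 1633 bp. RPS3, which also acts in DNA repair, had 1726, 1869 and 1334 bp against 1176, 1702 and 1380 bp. RPS27A, made as a fusion with ubiquitin, had 2504, 2309 and 1698 bp against 1816, 2015 and 1952 bp. RPSA, the laminin receptor, had 2208, 1921 and 948 bp against 1113, 1364 and 1296 bp. In all 5 the OA values spanned a narrower range than the Vehicle values, and Vehicle 3 was the lowest Vehicle value. The longest regions by the mean over the 6 libraries were those of RPL7 (2787 bp), RPL12 (2293 bp) and RPL28 (2142 bp), each of which also holds the start of another protein-coding gene. The shortest were those of RPL38 (890.2 bp), RPL29 (926.8 bp) and RPS27 (935.2 bp).

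Enrichment at the summit, column 7 of the lists (fold over local background), gave no such separation. The member medians were 6.18, 8.59 and 12.4 in Vehicle, 6.29, 10.1 and 8.24 in OA and 5.31 and 5.20 in the untreated libraries. Against the other start sites the ratios were 0.689, 0.814 and 1.14 in Vehicle and 0.867, 1.01 and 0.869 in OA, which overlap. Vehicle 3, with the shortest regions, had the highest enrichment. Centred, 51 of 78 members were higher in OA (median difference 0.07 log2, against -0.01 for all regions), and without centring 20 were. Without Vehicle 1 the number was 23, and without Vehicle 3 it was 68 of 79. No member passed limma, where 0.00903% of all regions did (1 of 11071), and 3 members had an unadjusted p under 0.05.

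RPSA had the largest rise, with column 7 values of 5.28, 6.47 and 6.19 in Vehicle and 6.28, 11.2 and 10.7 in OA (0.78 ± 0.17 log2, SE, adjusted p = 0.35 by limma). OA 1 lay within the Vehicle range. RPS9 followed, with 4.20, 4.11 and 6.47 in Vehicle and 4.50, 10.5 and 6.07 in OA (0.62 ± 0.24, SE, adjusted p = 0.62 by limma), where OA 2 alone was high. The lowest differences were those of RPS27 (6.61, 9.52 and 15.3 against 5.73, 9.14 and 6.55, -0.33 ± 0.24, SE) and RPS27L (9.54, 9.77 and 15.5 against 7.52, 8.43 and 8.91, -0.29 ± 0.20, SE).

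The rank of a region by column 8 (-log10 p), as a percentile among all peaks of its library, had member medians of 73.3, 83.1 and 87.2 in Vehicle, 68.5, 85.8 and 73.4 in OA and 67.5 and 59.2 in the untreated libraries. The OA minus Vehicle difference of the library medians was -5.31 points, within the SD of 7.12 in Vehicle and 8.94 in OA (n = 3 each), and 2.10 points over all regions. By region, 64.1% of members were lower in OA against 46.5% of all regions. No member passed limma, where 0% of all regions did, although 3 members and 1270 of 11071 regions had an unadjusted p under 0.05. RPS14 held the highest mean percentile (98.3), from 95.3 in OA 1 to 99.8 in Vehicle 2, followed by RPS15A (96.5) and RPL36AL (94.4). The lowest were RPS9 (44.9), RPL39 (45.8) and RPL36A (48.8). RPL39 ranged from 7.55 in OA 1 to 73.9 in Vehicle 3, so its rank was not stable between libraries.

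The libraries also placed the summit differently. The median summit lay 296, 169 and 125 bp downstream of the start in Vehicle 1 to 3, 285, 122 and 115 bp in OA 1 to 3, and 267 and 250 bp in the untreated libraries. Vehicle 1, OA 1 and both untreated libraries thus had summits farther into the gene than the other 4, and this did not follow treatment. Per member, the summit moved by a median of 384 bp over the 6 Vehicle and OA libraries, by at most 50 bp for 4 members and by over 500 bp for 30. It was downstream of the start in all 6 for 45 of 78 members and upstream in all 6 for 4. A peak covered the start base itself in 60, 76 and 75 of 78 regions in Vehicle, 43, 75 and 77 in OA, 23 of 75 in Untreated 1 and 21 of 72 in Untreated 2.

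**Figure D4:**
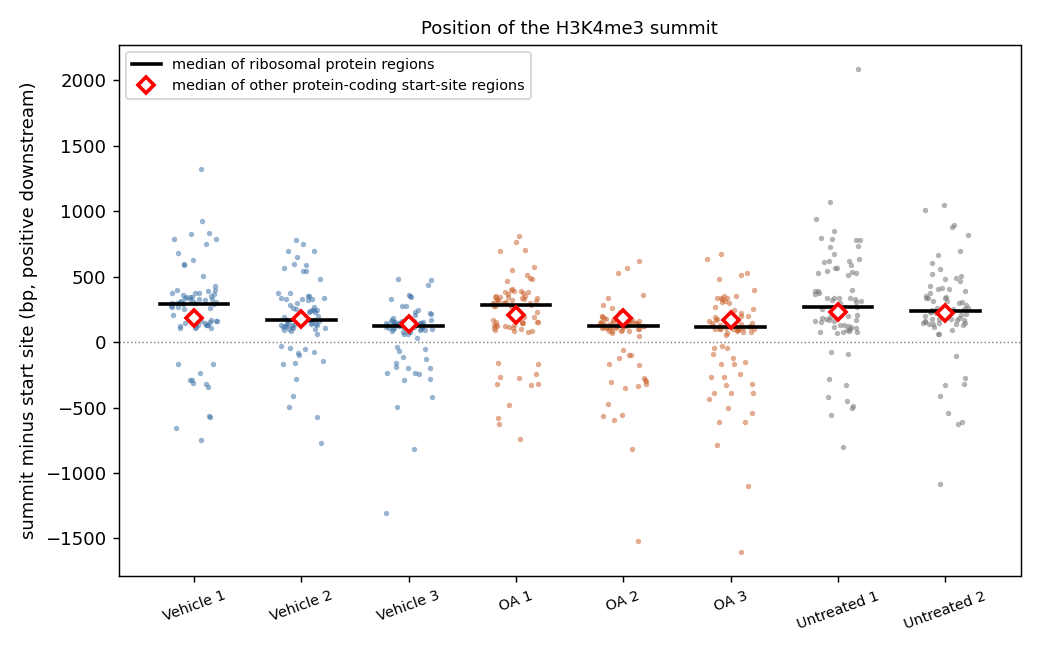
Distance in bp from the start site to the H3K4me3 summit (positive downstream) for each ribosomal protein region (points), with their median (black bar) and that of the other protein-coding start-site regions (red diamond). The medians are highest in Vehicle 1, OA 1 and the untreated libraries (250 to 296 bp) and 115 to 169 bp in the other 4.

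Depth behind these values was read from the peak columns, since columns 7 and 8 together fix the number of reads piled up at a summit. The median pileup over the member regions was 102, 204 and 63 reads in Vehicle, 45, 131 and 110 in OA and 29 and 24 in the untreated libraries. The local background behind the same summits was 16.1, 25.1 and 4.12 reads in Vehicle, 6.71, 11.4 and 12.5 in OA and 4.42 and 3.76 in the untreated libraries. Vehicle 3 had a low background, a high column 7 and short regions. The untreated libraries had a similar background and short regions but the lowest column 7 medians, 5.31 and 5.20. The part of depth and background in the length ratios was not tested.

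**Figure D5:**
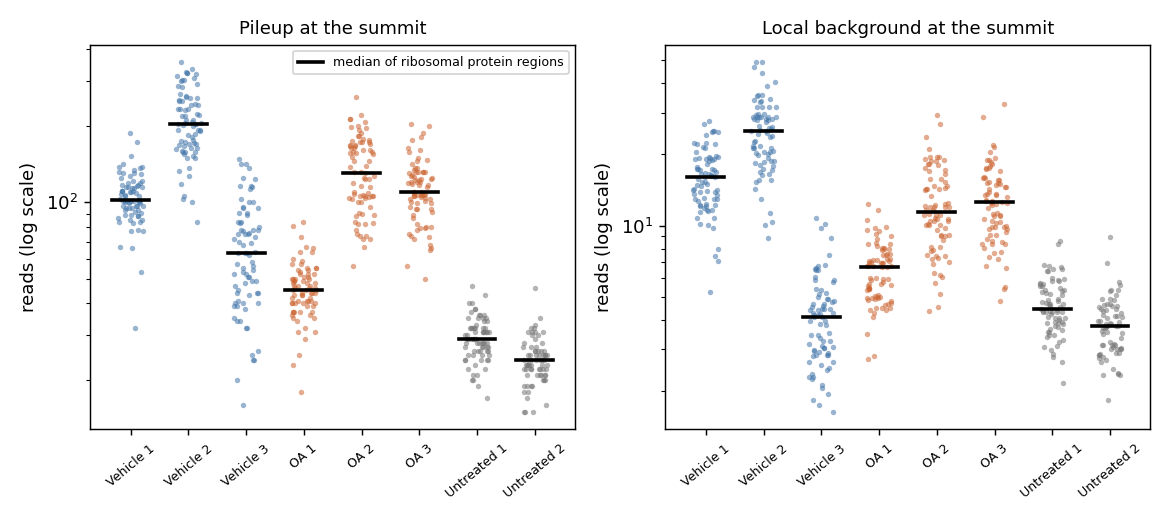
Pileup (left) and local background (right) in reads, on log axes, at the summit of each ribosomal protein region (points) in the 8 libraries, with medians as black bars. Pileup medians run from 24 reads in Untreated 2 to 204 in Vehicle 2, and Vehicle 3 has a background of 4.12 reads, close to those of the untreated libraries.

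Untreated against Vehicle cells addressed what the PBS exposure, the library or both add, which cannot be told apart here. Centred called length was lower in the untreated libraries for 40 of 70 member regions, against 47.7% of all 8302 regions, with a median of -0.05 log2. Without centring, 70 of 70 members and 95.2% of all regions were lower, with medians of -0.81 and -0.73 log2. No member passed limma on centred lengths, where 0.759% of all regions did (63 of 8302), and 5 members passed as lower without centring, where 12.1% of all regions passed in either direction. The lowest adjusted p was 0.068 for RPL26, whose centred length differed by -1.0 ± 0.18 log2 (SE, limma). Centred column 7 was lower for 25 of 70 members (35.7%) and 44.7% of all regions, and for 47 of 70 members without Vehicle 1. No member passed, where 0.0843% of all regions did. Without centring, 70 of 70 members and 97.9% of all regions were lower, and 57 members passed as lower, where 74.1% of all regions passed in either direction. The column 8 percentile was lower for 66 of 70 members by a median of 17.2 points, while 79.3% of all regions were lower by a median of 13.3 points. No member passed limma, where 0% of all regions did, and the lowest adjusted p was 0.071 for RPL18. Ranks taken among the regions of the fit alone were lower for 48 of 70 members (median -10.0 points) and for 52.1% of all regions (median -1.07).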

How the data were processed

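CUT&RUN libraries of MCF-10A cells were analysed as peak lists on hg38. H3K4me3 and IgG peaks were called by the authors with MACS2 2.2.7.1, one list per library, with q-values of at most 0.01, and H3K27me3 regions, per the study's methods, with SICER2, in a broad-peak layout. Each deposited H3K4me3 list gives a fold enrichment (column 7, a ratio to local background) and the -log10 p-value (column 8) and q-value, none scaled between libraries. Total read depth is not given in the sources used here, and no pooled peaks were used. Outputs of the authors' DiffBind comparisons were not used.

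Vehicle and OA H3K4me3 peaks on the autosomes, X and Y were merged (1 bp, at least 2 of 6 libraries) into 18734 regions. The 11071 called in all 6 were tested, and for the untreated comparison the 8302 called in those 5 libraries. limma 3.58.1 (R 4.3.3) was fitted over all regions, with Benjamini-Hochberg adjustment, to log2 length and log2 column 7, each centred on the library median, and to the column 8 percentile. A call was an adjusted p under 0.05. The labels only number the replicates. The study's methods state that Vehicle and OA cells were seeded as biological replicates. Whether the untreated libraries come from separate cultures is not stated. Scripts were tested on simulated data. Pileup and background were solved from columns 7 and 8 with MACS2's pseudocount of 1 (652 of 652 summits with a -log10 p up to 250, within 0.2% of -log10 p). This step, the length classes and the extents were added after the values were seen.

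The members and lists were chosen with earlier results of these data known. Named genes were those with missing calls, the 3 highest and 3 lowest by mean percentile and by length, the 2 largest rises and falls in length and column 7, and listed examples. Some genes of the comparison and marker lists are not reported here. RPS4X, RPL26 and RPL18 were named after their values were seen. Alternatives were a q-value of 1e-05, 50% cover, other scalings, a replicate block and each library left out. Promoter sequences came from RefSeq. Figures were drawn with matplotlib 3.10.9 in Python 3.11.15, and scipy 1.17.1 gave the Poisson tails.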

Additional observations from a re-analysis of the deposited data

How the results depend on the processing

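The 8 named differences between OA and Vehicle kept their sign in all 81 refits, and none passed at an adjusted p under 0.05. These 8 were picked as the largest of the main fit and refitted on mostly the same libraries, so a kept sign is no separate test of them. Their size did not hold: RPL39 length went from -0.82 to -0.07 log2 without OA 1, and in column 7 RPS27 went from -0.33 to -0.08 and RPS27L from -0.29 to -0.12 without Vehicle 3. RPL26L1 length went from 0.31 to 0.17 without Vehicle 3 and RPS9 column 7 from 0.62 to 0.37 without OA 2. Members lower in OA in length numbered 33 of 37 with 50% cover and 70 to 74 when each library was left out. Members higher in column 7 numbered 28 of 37 with 50% cover, 20 without centring, and 23 to 68 when each library was left out (lowest without Vehicle 1). With 50% cover, 38 genes were called in all 6 and 6 in all 8 libraries.

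Genome-wide calls depended on the setting. OA length gave 0 to 11 calls with a library left out, 11 of them without Vehicle 3 and 2 without Vehicle 1. OA column 7 gave 0 with 50% cover, 0 at a q-value of 1e-05, 2 without centring and 0 to 3 with a library left out. Untreated length gave 1003 calls without centring (5 members, lower), 1 by quantile normalization, 378 under the replicate block (3 members, lower) and 0 with any library left out. Untreated column 7 gave 6155 without centring (57 members, lower), 112 with 50% cover, 15 at the stricter q-value, 11 by quantile normalization, 487 under the replicate block (1 member, higher), and 0 to 727 with a library left out (0 to 2 members, 727 without Vehicle 3, 169 without Vehicle 1, 3 without Vehicle 2). Untreated percentile gave 103 calls among the regions of the fit only and 0 to 838 with a library left out (0 to 8 members), 838 of them without Untreated 1. A group left with 1 library is assumed to vary like the other. The causes were not tested.

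Same-numbered Vehicle and OA libraries correlated at 0.045, 0.157 and -0.232 in length. Differently numbered ones ran from -0.274 to 0.234, so these values do not tell whether the numbers pair the samples. The replicate block changed no count of OA calls. The member median of length, OA minus Vehicle, ran from -500.5 to -90.3 bp with a library left out, the lowest without Vehicle 3. That of column 7 ran from -2.30 to 0.816, above 0 without Vehicle 3 and without OA 1, and that of the percentile from -10.3 to -1.61.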
